A study of Mus musculus with 15 samples.

Results

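Primary chondrocytes were examined here for the genes of glycolysis and of the response to hypoxia. The set was a list of 36 genes: the glucose and lactate transporters, the glycolytic enzymes with their tissue isozymes, the kinases that steer pyruvate and fructose phosphates, the oxygen-sensitive subunits of hypoxia-inducible factor (HIF), the prolyl hydroxylases that mark these subunits, and well known HIF target genes. Members were taken by name from the array annotation, and 31 of them could be tested among 11751 genes tested in all. Of the other members, Gpi1 and Eno1 had 0 probe sets under that name in the annotation used, and Bnip3l was only on probe sets shared with a second symbol. Gapdh was on 3 control probe sets and on 3 shared with another symbol, and is given by control values alone. Ankrd37 stayed under the signal filter with 3.249 to 38.45 on all 15 arrays.

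The cells came from tibiae, femurs and humeri of CD1 mouse embryos of day 15.5, were grown as monolayers in medium with serum, and were treated for 24 hours. There were 5 groups of 3 arrays each: LY294002, an inhibitor of phosphoinositide 3-kinase (PI3K), at 10 µM, UO126, an inhibitor of the ERK kinase MEK, at 10 µM, SB202190, best known as an inhibitor of p38 MAP kinase, at 10 µM, the histone deacetylase inhibitor TSA (trichostatin A), whose dose is not given because its unit could not be read in the labels, and the solvent DMSO, which was the control for all 4 compounds. None of the groups was labelled as kept at low oxygen. Each array held the RNA of a mixed culture, in which fewer cells of a type and less RNA per cell cannot be told apart.

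Chondrocytes live in cartilage without blood vessels and draw most of their ATP from glycolysis. Glucose enters through the transporters Slc2a1 and Slc2a3, is broken down to pyruvate in the cytosol, and leaves as lactate through the carriers Slc16a1 and Slc16a3. In normal oxygen the prolyl hydroxylases Egln1 and Egln3 mark the HIF alpha subunits Hif1a and Epas1 for destruction. At low oxygen the subunits persist and pair with Arnt, and the pair binds the core letters ACGTG or GCGTG near many genes of this set. That control acts largely on the protein, which these arrays did not measure.

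To show what such letters look like in these genes, the 250 bases before the start of 5 members are printed from RefSeq (assembly GRCm38.p6), 3 that were higher and then 2 that were lower in TSA-treated cells, with ACGTG or its reverse complement CACGT in capitals.
Slc16a3 (chr11:120948817-120949066, plus strand): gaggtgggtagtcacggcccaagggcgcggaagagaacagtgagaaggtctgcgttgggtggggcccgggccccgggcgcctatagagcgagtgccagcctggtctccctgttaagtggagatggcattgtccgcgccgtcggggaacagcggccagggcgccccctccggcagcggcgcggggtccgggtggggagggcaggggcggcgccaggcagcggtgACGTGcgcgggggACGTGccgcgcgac
Egln3 (chr12:54203875-54204124, minus strand): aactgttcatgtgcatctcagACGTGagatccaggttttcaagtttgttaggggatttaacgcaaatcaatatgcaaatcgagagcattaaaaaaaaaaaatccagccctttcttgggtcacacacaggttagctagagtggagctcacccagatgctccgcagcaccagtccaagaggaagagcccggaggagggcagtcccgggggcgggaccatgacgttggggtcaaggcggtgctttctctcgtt
Bnip3 (chr7:138909507-138909756, minus strand): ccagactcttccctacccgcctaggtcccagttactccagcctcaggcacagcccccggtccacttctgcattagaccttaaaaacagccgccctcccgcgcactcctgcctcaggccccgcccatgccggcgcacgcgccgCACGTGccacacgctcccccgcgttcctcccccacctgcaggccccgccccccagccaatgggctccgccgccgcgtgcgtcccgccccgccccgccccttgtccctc
Hk2 (chr6:82774455-82774704, minus strand): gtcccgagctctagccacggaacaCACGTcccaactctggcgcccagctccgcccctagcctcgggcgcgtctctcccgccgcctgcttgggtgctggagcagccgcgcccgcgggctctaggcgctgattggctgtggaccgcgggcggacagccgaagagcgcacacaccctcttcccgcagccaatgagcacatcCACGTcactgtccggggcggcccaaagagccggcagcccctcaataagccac
Ldha (chr7:46845554-46845803, plus strand): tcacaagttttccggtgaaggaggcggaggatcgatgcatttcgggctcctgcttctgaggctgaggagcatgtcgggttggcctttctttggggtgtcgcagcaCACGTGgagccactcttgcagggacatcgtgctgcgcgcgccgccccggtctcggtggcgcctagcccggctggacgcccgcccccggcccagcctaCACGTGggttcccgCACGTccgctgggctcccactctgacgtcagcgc

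The windows held from 1 match of this motif in Egln3 to 5 in Ldha, where the palindrome CACGTG was counted once on each strand. Of the 36 members, 32 had such a window, and 10 of these had more than 1, in which case a match in any window was counted. ACGTG, read on both strands, stood in 18 of the 32 members (56.2%), against 18.5% of the 27025 genes with a window. GCGTG, whose last 4 letters are those of ACGTG, stood in 21 members (65.6%) against 30.9% of all genes. ACGTG was in the windows of 8 of 16 members that were higher with TSA and of 4 of 5 that were lower, so the letters were found on both sides. The windows were not matched for base composition, and a match is a description of the letters and not of binding. Slc2a3, Epas1 and Ndrg1, which are among the genes described here, were not in the sequence table used.

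The signals are MAS5 signals, a robust average of the probe brightness of a probe set on a linear scale, scaled to make arrays comparable. Where a gene had several probe sets, the brightest stood for it, and changes are differences of log2 signal with the standard error (SE) of the limma fit and p adjusted by Benjamini-Hochberg over 21765 probe sets. A gene was called when the adjusted p was under 0.05. Statements that groups were apart or did not overlap describe the signals on 3 arrays per group. The share of all genes without such overlap is not given here. The Gapdh 3′ to 5′ ratio was 0.823 to 0.963 over the arrays, and 40.92% to 44.96% of probe sets had a signal of 50 or more. The first LY294002 array had the lowest median signal, 29.8, against 33.88 to 39.96 on the others, and the first DMSO array had the lowest maximum, 5165, against 6239 to 8622 on the others. The 9 chondrocyte markers were all measured, and their summed signal was 25770 to 33240 with LY294002, 27360 to 36290 with UO126, 21330 to 23570 with SB202190, 13780 to 15680 with TSA and 19900 to 30060 with DMSO. Matn1, a cartilage matrix protein, averaged 198 ± 60.2 with TSA and 1870 ± 197 with DMSO, and Col2a1, the main cartilage collagen, averaged 5630 ± 769 with TSA and 5700 ± 1580 with DMSO (SD, n = 3 each). Macrophage markers summed to 541.0 to 617.4 with TSA and 696.0 to 805.9 with DMSO, where Lyz2 was 56.2 ± 2.0 with TSA and 257 ± 18.6 with DMSO but Cd68 was 292 ± 24.6 with TSA and 68.0 ± 8.09 with DMSO (SD, n = 3 each). Fibroblast and osteoblast markers summed to 6479 to 8041 with TSA and 8804 to 12420 with DMSO. The part of these marker levels in the TSA results was not tested. Of 4 endothelial markers 3 averaged under 50 in all groups, with Pecam1 at 7.59 ± 5.15 in TSA cultures and 5.16 ± 2.59 in DMSO cultures. The other, Kdr, averaged 68.4 ± 14.9 with TSA and 71.6 ± 15.3 with DMSO (SD, n = 3 each). The 2 measured red cell markers averaged under 50 in all groups.

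**Figure D1:**
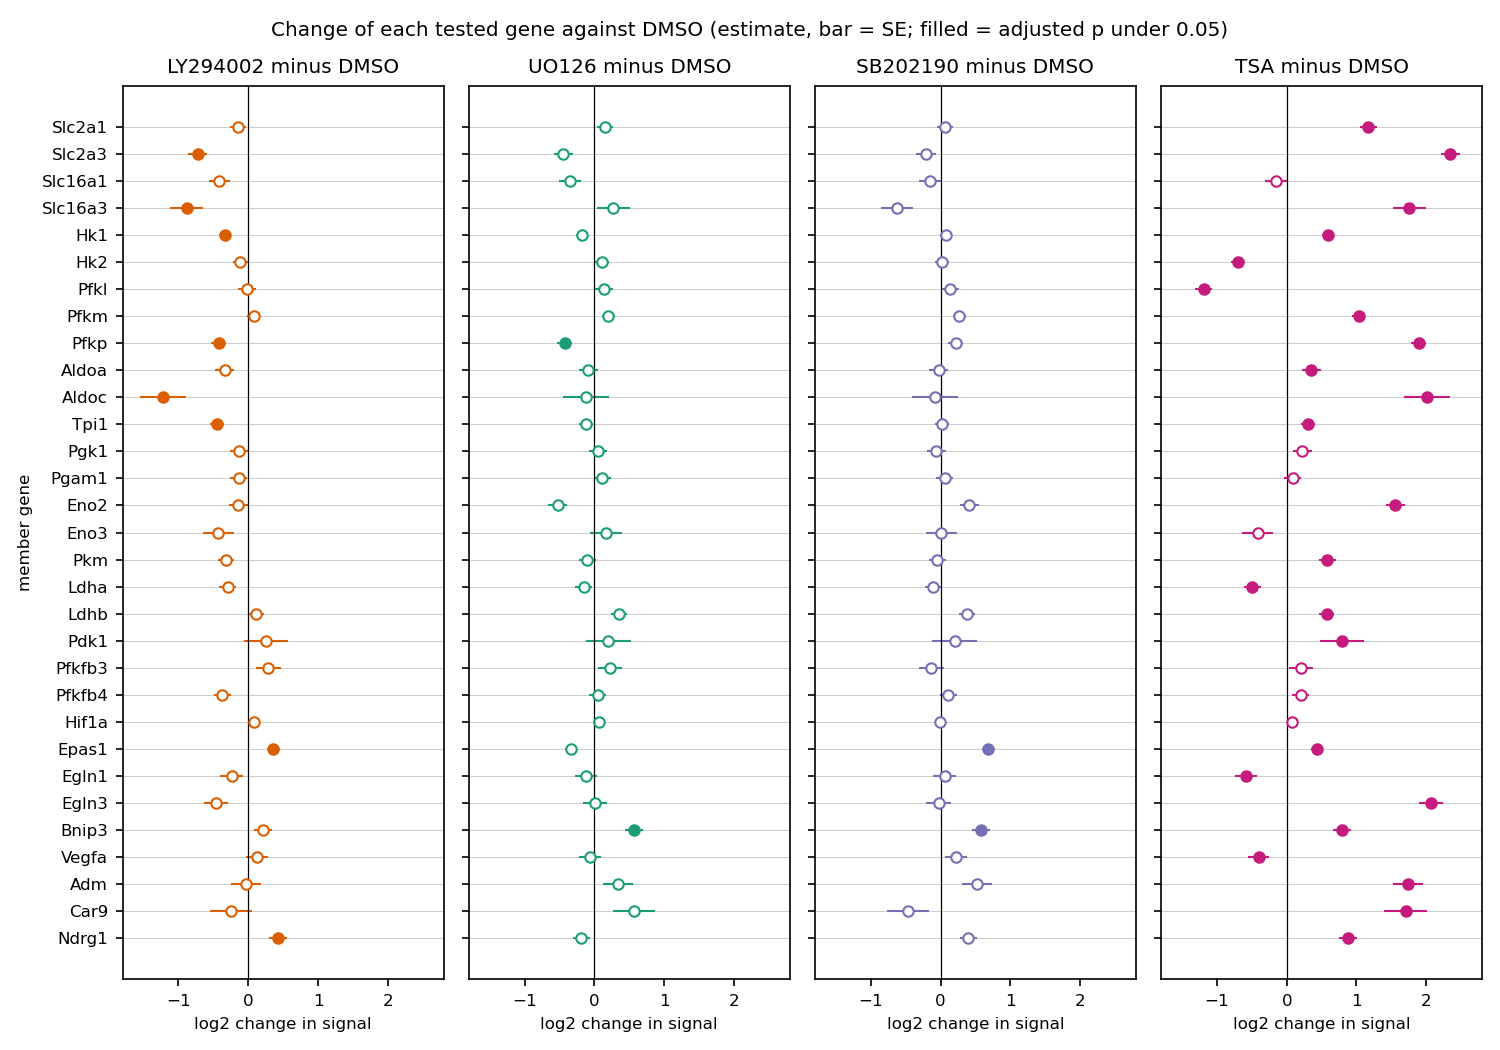
Log2 change in signal (x axis) of each of the 31 tested genes (y axis, grouped from transporters to hypoxia-induced genes) for LY294002, UO126, SB202190 and TSA, each minus DMSO. Points are estimates of the fit and bars their SE, and filled points passed an adjusted p of 0.05, which 24 genes did with TSA, 8 with LY294002 and 2 with each of UO126 and SB202190.

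TSA moved most of the set. It raised 19 of the 31 tested members and lowered 5, while 30.6% of all genes tested were higher and 28.4% lower with this compound. The median change of the members was 0.575 on the log2 scale, against 0.00 over all genes. The genes that rose most included those of the glucose transporter Slc2a3, the lactate exporter Slc16a3, platelet-type phosphofructokinase and neuronal-type enolase and aldolase. The hydroxylase Egln3 and the secreted peptide Adm were also among them, and Pfkl, Hk2, Ldha, Egln1 and Vegfa fell. In 4 of the 10 families with at least 2 tested members 1 member rose and another fell, by their brightest probe sets. The second probe sets of Egln1 and of Vegfa were not called. How often other gene families split in this way with TSA was not tested.

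Among the transporters, Slc2a3, the high-affinity glucose transporter best known from neurons, had the largest change of the set. Its signals were 624.2, 601.9 and 581.1 with TSA, against 129.9, 116.3 and 110.0 with DMSO, a 5.08-fold rise (log2 change 2.35, SE 0.14, adjusted p = 2.17e-09). Slc2a1, the widespread basal glucose transporter, had signals of 1469, 1416 and 1127 with TSA, against 614.5, 551.0 and 607.3 with DMSO (2.25-fold higher, adjusted p = 6.01e-07). For both genes every TSA array lay above every DMSO array. Slc16a3, the lactate exporter of highly glycolytic cells, had 448.1, 473.4 and 525.3 with TSA, against 111.3, 145.9 and 177.2 with DMSO (3.38-fold higher, log2 change 1.76, SE 0.23, adjusted p = 1.2e-05). Its partner Slc16a1, which carries lactate in either direction, did not pass the test, with 777.2, 583.3 and 708.5 with TSA and 849.9, 803.7 and 651.9 with DMSO (log2 change -0.16, SE 0.16, adjusted p = 0.409), and the groups overlapped.

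In upper glycolysis all 8 tested members passed the test, 6 higher and 2 lower, where 30.6% of all genes tested were higher and 28.4% lower. The hexokinases, which trap glucose by phosphorylation, moved apart. Hk1, the constitutive form, had 1258, 1187 and 1218 with TSA, against 799.0, 820.7 and 800.9 with DMSO (1.51-fold higher, adjusted p = 2.4e-05). Hk2, the form that insulin and hypoxia induce in many tissues, had 195.7, 186.0 and 209.7 with TSA, against 299.4, 319.2 and 340.3 with DMSO (1.62-fold lower, adjusted p = 4.67e-05). Neither gene had an overlap between the groups.

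Phosphofructokinase, which commits sugar to glycolysis, is built from liver, muscle and platelet subunits. The platelet subunit gene Pfkp had signals of 929.9, 901.7 and 943.0 with TSA, against 276.2, 224.1 and 250.5 with DMSO (3.71-fold higher, log2 change 1.89, SE 0.11, adjusted p = 1.3e-09). Pfkm, the muscle subunit gene, had 754.6, 734.8 and 618.1 with TSA, against 349.4, 364.2 and 315.5 with DMSO (2.04-fold higher, adjusted p = 2.51e-07). Pfkl, the liver subunit gene, lay on the other side with 318.4, 321.5 and 277.6 with TSA, against 610.3, 681.9 and 814.1 with DMSO (2.29-fold lower, log2 change -1.19, SE 0.13, adjusted p = 1.09e-06). The arrays of the 2 groups were apart for all 3 subunit genes, with Pfkm and Pfkp above and Pfkl below the controls. The summed signal of 6 skeletal muscle markers was 268.9 to 302.6 with TSA and 572.6 to 1043 with DMSO, and its part in the result for Pfkm was not tested.

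Aldolase splits the doubly phosphorylated sugar. Aldoc, the brain-type form, had 326.9, 310.6 and 260.2 with TSA, against 93.56, 96.25 and 44.42 with DMSO (4.04-fold higher, log2 change 2.02, SE 0.33, adjusted p = 8.56e-05). Aldoa, the main form outside liver and brain, had 3772, 3799 and 2705 with TSA, against 2148, 2820 and 3064 with DMSO, and its groups overlapped (1.28-fold higher, adjusted p = 0.0406). The Aldoa call rested on few arrays: without TSA array 1 or 2 or DMSO array 1 it ended (adjusted p = 0.154 to 0.2, alternatives 0.00371 to 0.2), and 2 of its 5 probe sets did not pass. Tpi1, which interconverts the products of aldolase, rose by 0.31 on the log2 scale (SE 0.10, adjusted p = 0.0156), a call that ended without TSA array 1 or 2 or DMSO array 1 (adjusted p = 0.0517 to 0.0678, alternatives 0.000163 to 0.0678), although its other 2 probe sets had adjusted p of 0.000132 and 0.00026.

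In lower glycolysis 3 of 7 tested members rose (42.9%) and 1 fell (14.3%), where 30.6% of all genes tested were higher and 28.4% lower. Eno2, the enolase of neurons and neuroendocrine cells, had 353.3, 371.5 and 414.0 with TSA, against 129.0, 120.4 and 137.0 with DMSO (2.94-fold higher, log2 change 1.56, SE 0.14, adjusted p = 1.49e-07). Eno3, the muscle enolase, had 177.3, 249.5 and 225.5 with TSA, against 417.4, 269.4 and 211.3 with DMSO, with overlapping arrays (log2 change -0.42, SE 0.22, adjusted p = 0.126). Pkm, pyruvate kinase, rose by 0.58 (SE 0.12, adjusted p = 0.000611), while Pgk1 (0.22, adjusted p = 0.163) and Pgam1 (0.09, adjusted p = 0.561), which act between aldolase and enolase, were not called. Without DMSO array 3 Eno3 passed the test as lower (adjusted p = 0.0256), and without TSA array 3 Pgk1 passed as higher (adjusted p = 0.0309).

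Neuron markers were higher alongside Slc2a3, Aldoc and Eno2. The summed signal of the 5 markers was 1084 to 1363 with TSA and 284.5 to 430.2 with DMSO. Stmn2 had most of it, at 781 ± 114 with TSA and 165 ± 53.8 with DMSO, while Snap25, a defining synaptic protein, was near the floor at 7.27 ± 4.13 with TSA and 3.92 ± 2.87 with DMSO (SD, n = 3 each). The part of these markers in the changes of Slc2a3, Aldoc and Eno2 was not tested.

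The lactate dehydrogenase subunits, at the end of the pathway, also moved apart, and they were singled out after their values were seen. Ldhb, the heart-type subunit, had 759.2, 852.0 and 802.9 with TSA, against 477.6, 577.3 and 569.7 with DMSO (log2 change 0.58, SE 0.11, adjusted p = 0.000379), and all 4 of its probe sets were called higher. Ldha, the muscle-type subunit, had 2632, 2733 and 2505 with TSA, against 2959, 3810 and 4433 with DMSO (1.41-fold lower, log2 change -0.49, SE 0.12, adjusted p = 0.00277). The groups did not overlap for either subunit. Of the windows printed above that of Ldha held the most ACGTG matches, and its other window held 0. The part of these letters in the change of Ldha was not tested.

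**Figure D2:**
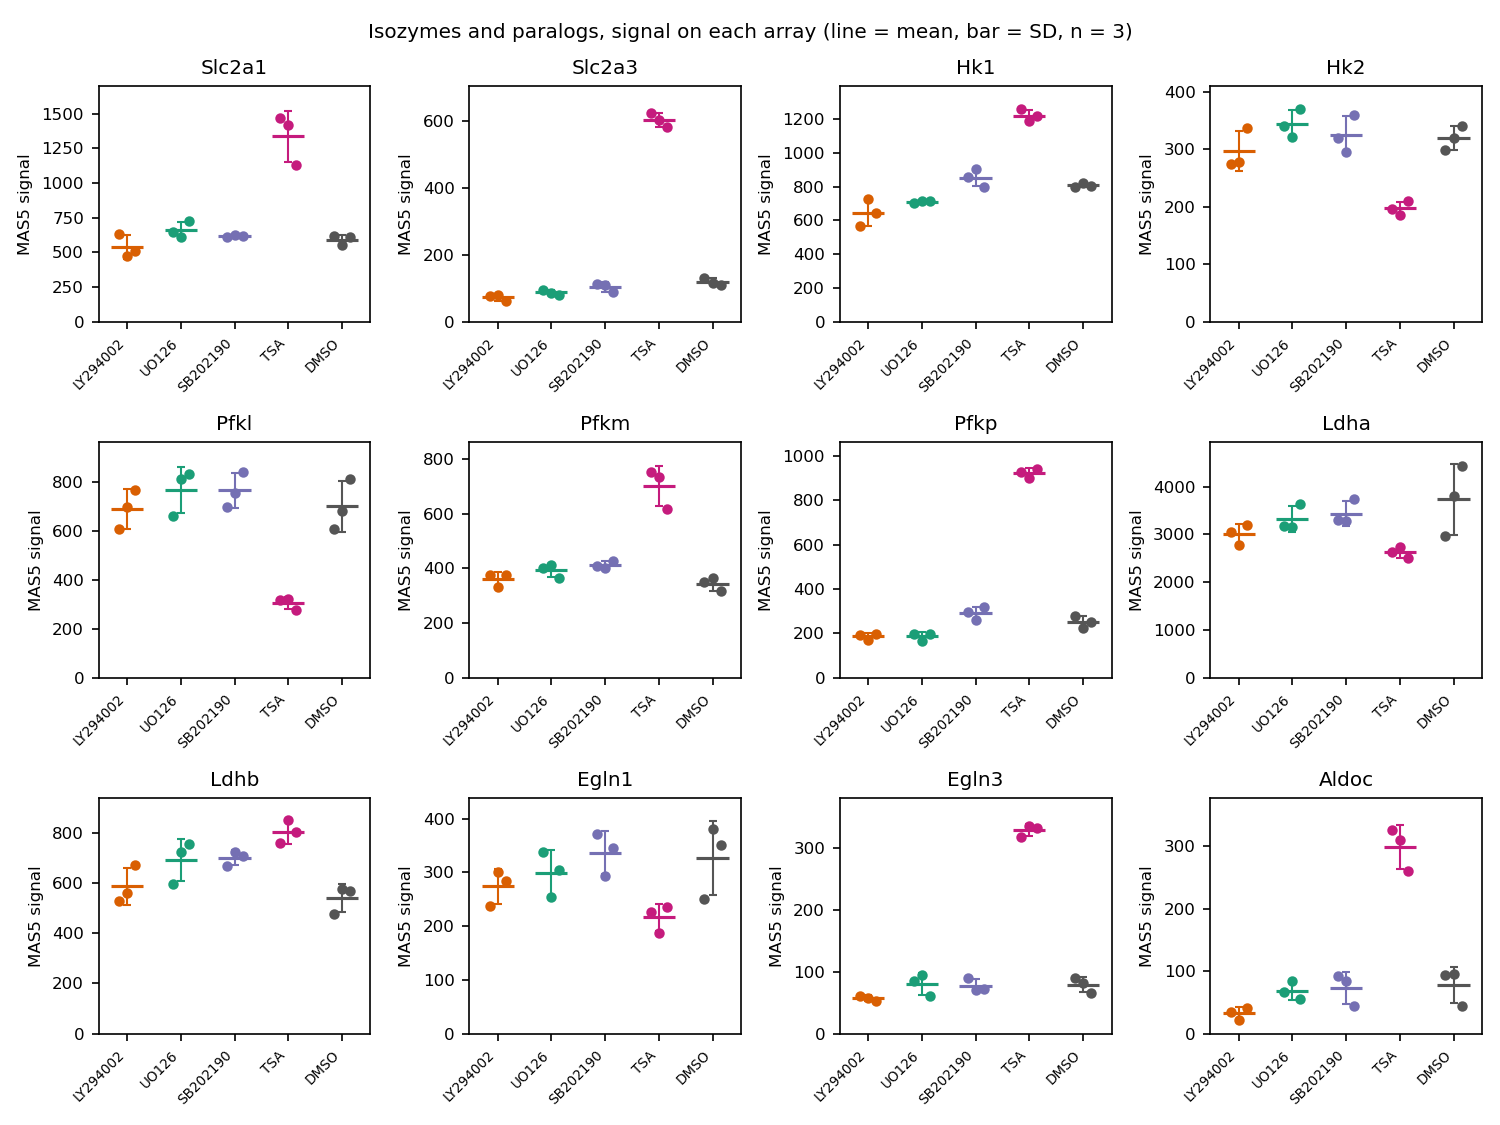
MAS5 signal (y axis, linear from 0) on every array of the 5 groups (x axis) for 12 genes, as points, with the group mean as a line and the SD as a bar (n = 3). With TSA, Hk1, Pfkm, Pfkp, Ldhb and Egln3 were higher than with DMSO and their partners Hk2, Pfkl, Ldha and Egln1 lower. The brightest probe set of each gene is shown, and the second Egln1 probe set was not called.

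Of the genes that control flux, Pdk1, which restrains pyruvate dehydrogenase, rose with TSA (log2 change 0.79, SE 0.32, adjusted p = 0.0465), and a second probe set gave a larger change (1.93, adjusted p = 5.31e-07). By the first probe set the call ended without any TSA array or without DMSO array 2 or 3 (adjusted p = 0.0693 to 0.201, alternatives 0.000396 to 0.201). Pfkfb3 and Pfkfb4, which make the activator of phosphofructokinase, were not called, with changes of 0.21 and 0.20 (adjusted p = 0.339 and 0.182).

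Among the oxygen sensors, Egln3, itself a HIF target, had signals of 317.8, 335.1 and 332.1 with TSA, against 89.06, 81.16 and 66.18 with DMSO (4.20-fold higher, log2 change 2.07, SE 0.17, adjusted p = 9.64e-08). Egln1, the main hydroxylase in normal oxygen, had 226.3, 187.2 and 235.2 with TSA, against 249.7, 380.0 and 351.7 with DMSO (log2 change -0.58, SE 0.16, adjusted p = 0.00617), but its second probe set showed a change of only 0.05 (adjusted p = 0.736). Hif1a had 2088, 2002 and 2042 with TSA, against 2019, 1803 and 2003 with DMSO, which overlapped and was not called (adjusted p = 0.42), although 1 of its 3 probe sets was called higher by 0.23 (adjusted p = 0.0445). Epas1, the HIF-2 alpha subunit, had 550.6, 543.0 and 590.6 with TSA, against 423.6, 394.5 and 429.4 with DMSO, with no overlap (log2 change 0.43, SE 0.09, adjusted p = 0.000884), and its dimmer probe set was not called (adjusted p = 0.191).

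The other hypoxia-induced genes rose in 4 of 5 cases, where 30.6% of all genes tested were higher. Adm, a vasodilator peptide, had 720.4, 607.7 and 365.6 with TSA, against 186.2, 149.4 and 156.6 with DMSO (3.33-fold higher, log2 change 1.73, SE 0.21, adjusted p = 5.83e-06). Car9, a carbonic anhydrase of the cell surface, had 122.8, 96.38 and 145.0 with TSA, against 43.51, 38.33 and 29.67 with DMSO (3.26-fold higher, log2 change 1.71, SE 0.30, adjusted p = 0.000195). The arrays of the groups were apart for both, and Car9 passed the signal filter through the TSA and UO126 groups only. Ndrg1, a stress-responsive gene, and Bnip3, a receptor that targets mitochondria for autophagy, rose by 0.88 and 0.79 on the log2 scale (adjusted p = 2.41e-05 and 9.2e-05). Vegfa, the main growth factor for blood vessels, was lower by a log2 change of -0.40 (SE 0.16, adjusted p = 0.0387), a call that ended without TSA array 2 or 3 or DMSO array 1 or 3 (adjusted p = 0.055 to 0.224, alternatives 0.0071 to 0.224). The groups overlapped for Vegfa, and its second probe set was not called.

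LY294002 lowered 6 of the 31 members and raised 2, where 3.84% of all genes tested were lower and 5.63% higher. The 6 lower genes were Aldoc, Slc16a3, Slc2a3, Tpi1, Pfkp and Hk1, that is, 2 of 4 transporters and 4 of 8 enzymes of upper glycolysis. The median over the 31 members was -0.145 on the log2 scale and that of all genes 0.00828. The 2 higher genes, Ndrg1 and Epas1, belong to the hypoxia side of the set, and their share of 6.45% was near the 5.63% over all genes. The neuron markers summed to 222.5 to 316.9 with LY294002 and 284.5 to 430.2 with DMSO, with Gap43 at 65.2 ± 13.1 with LY294002 and 129 ± 8.27 with DMSO (SD, n = 3 each), and their part in the changes of Slc2a3 and Aldoc was not tested.

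Slc2a3 had signals of 76.23, 80.72 and 60.09 with LY294002, against 129.9, 116.3 and 110.0 with DMSO (1.65-fold lower, log2 change -0.72, SE 0.14, adjusted p = 0.00589). All LY294002 arrays were below all DMSO arrays, and no single array ended this call, although the second probe set just missed it (adjusted p = 0.0764). Slc2a1 had 633.4, 472.3 and 508.4 with LY294002, against 614.5, 551.0 and 607.3 with DMSO, which overlapped and was not called (log2 change -0.14, adjusted p = 0.488). Slc16a3 had 57.66, 70.92 and 112.4 with LY294002, against 111.3, 145.9 and 177.2 with DMSO (1.84-fold lower, log2 change -0.88, SE 0.23, adjusted p = 0.0317), with the third LY294002 array just above the lowest control. Slc16a1 had 674.4, 589.4 and 475.2 with LY294002, against 849.9, 803.7 and 651.9 with DMSO, and was called lower only with the replicate number as a block (log2 change -0.41, adjusted p = 0.0339).

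Among the enzymes, Aldoc had 33.97, 22.18 and 41.66 with LY294002, against 93.56, 96.25 and 44.42 with DMSO (2.34-fold lower, log2 change -1.22, SE 0.33, adjusted p = 0.0328). Pfkp had 190.9, 170.8 and 196.2 with LY294002, against 276.2, 224.1 and 250.5 with DMSO (log2 change -0.43, SE 0.11, adjusted p = 0.0241). The second Pfkp probe set, with means of 63.75 with LY294002 and 97.41 with DMSO, was not called. Aldoc and Pfkp did not overlap between the groups, and Aldoc was under a signal of 50 on every LY294002 array. With signals under 50 set to 50 the Aldoc change was -0.62 and not called (adjusted p = 0.163), so its size rests on signals below that level. Hk1 had 564.1, 727.8 and 645.3 with LY294002, against 799.0, 820.7 and 800.9 with DMSO (log2 change -0.33, SE 0.09, adjusted p = 0.0288). The second Hk1 probe set, with means of 181.9 with LY294002 and 232.7 with DMSO, was not called. Tpi1 had 1774, 1589 and 1579 with LY294002, against 2070, 2357 and 2327 with DMSO (log2 change -0.45, SE 0.10, adjusted p = 0.0126), and all 3 of its probe sets were called lower. The partners Hk2, Pfkl and Pfkm lay near the controls, with 274.8, 278.6 and 336.8 for Hk2 with LY294002, against 299.4, 319.2 and 340.3 with DMSO, and none of these 3 was called (adjusted p = 0.565 to 0.955).

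On the hypoxia side, Epas1 had 562.4, 484.5 and 556.5 with LY294002, against 423.6, 394.5 and 429.4 with DMSO (log2 change 0.36, SE 0.09, adjusted p = 0.0271). Ndrg1 had 504.3, 503.7 and 678.6 with LY294002, against 370.4, 390.2 and 491.3 with DMSO (log2 change 0.43, SE 0.12, adjusted p = 0.0491), and 3 of its 5 probe sets were called. Both genes were higher on every LY294002 array than on any DMSO array. The second Epas1 probe set was not called (adjusted p = 0.78), nor was Hif1a, with 2202, 1996 and 1972 with LY294002 and 2019, 1803 and 2003 with DMSO (adjusted p = 0.549). Apart from that of Slc2a3, these calls were close to the threshold and ended without single arrays. Slc16a3 lost its call without LY294002 array 1 or 2 or DMSO array 2 or 3 (adjusted p = 0.0884 to 0.128, alternatives 0.0109 to 0.128), and Hk1 without LY294002 array 1 or 3 or DMSO array 2 or 3 (0.0677 to 0.118, alternatives 0.0144 to 0.274). Pfkp lost it without LY294002 array 1 or 2 or DMSO array 1 or 3 (adjusted p = 0.0517 to 0.0937, alternatives 0.00336 to 0.293), Aldoc without LY294002 array 1 or 2 or DMSO array 1 or 2 (0.0701 to 0.126, alternatives 0.013 to 0.163), and Tpi1 without LY294002 array 2 or DMSO array 2 (0.0509 to 0.0526, alternatives 0.00278 to 0.111). With every array centred on its median, which moved the median change of all probe sets to 0.124, 2 members were called lower and 1 higher. Epas1 lost its call without LY294002 array 1 or 3 or DMSO array 2 or 3 (adjusted p = 0.055 to 0.0955, alternatives 0.0155 to 0.236), and Ndrg1 without any LY294002 array or DMSO array 1 or 2 (0.0576 to 0.175, alternatives 0.00523 to 0.175).

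The bright enzymes of lower glycolysis were not called with LY294002. Of the 7 members tested there limma called 0 in either direction, and an unadjusted p under 0.05 was reached by 2, both lower. For these genes the first DMSO array stood apart. Pkm had 2384, 2187 and 2574 with LY294002, against 2424, 3125 and 3418 with DMSO, and Ldha had 3052, 2778 and 3200 with LY294002, against 2959, 3810 and 4433 with DMSO. Aldoa had 2116, 1954 and 2225 with LY294002, against 2148, 2820 and 3064 with DMSO. The Gapdh control probe set for the middle of the transcript, which was not tested, showed the same order of controls, with 3928, 3594 and 4430 with LY294002 and 3477, 4727 and 5157 with DMSO. In each of these genes the first DMSO array was the lowest control. The highest signal of any probe set on that array was 5165, against 7226 and 7845 on the other DMSO arrays and 6239 to 7485 on the LY294002 arrays. Without the first DMSO array Aldoa, Pkm and Ldha were called lower with LY294002 (adjusted p = 0.0323, 0.0152 and 0.0143), and with quantile normalization Pgk1 was called as well, which made 10 lower members in place of 6. The share of all genes called lower in these settings is not given here, so the 10 cannot be set against it.

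**Figure D3:**
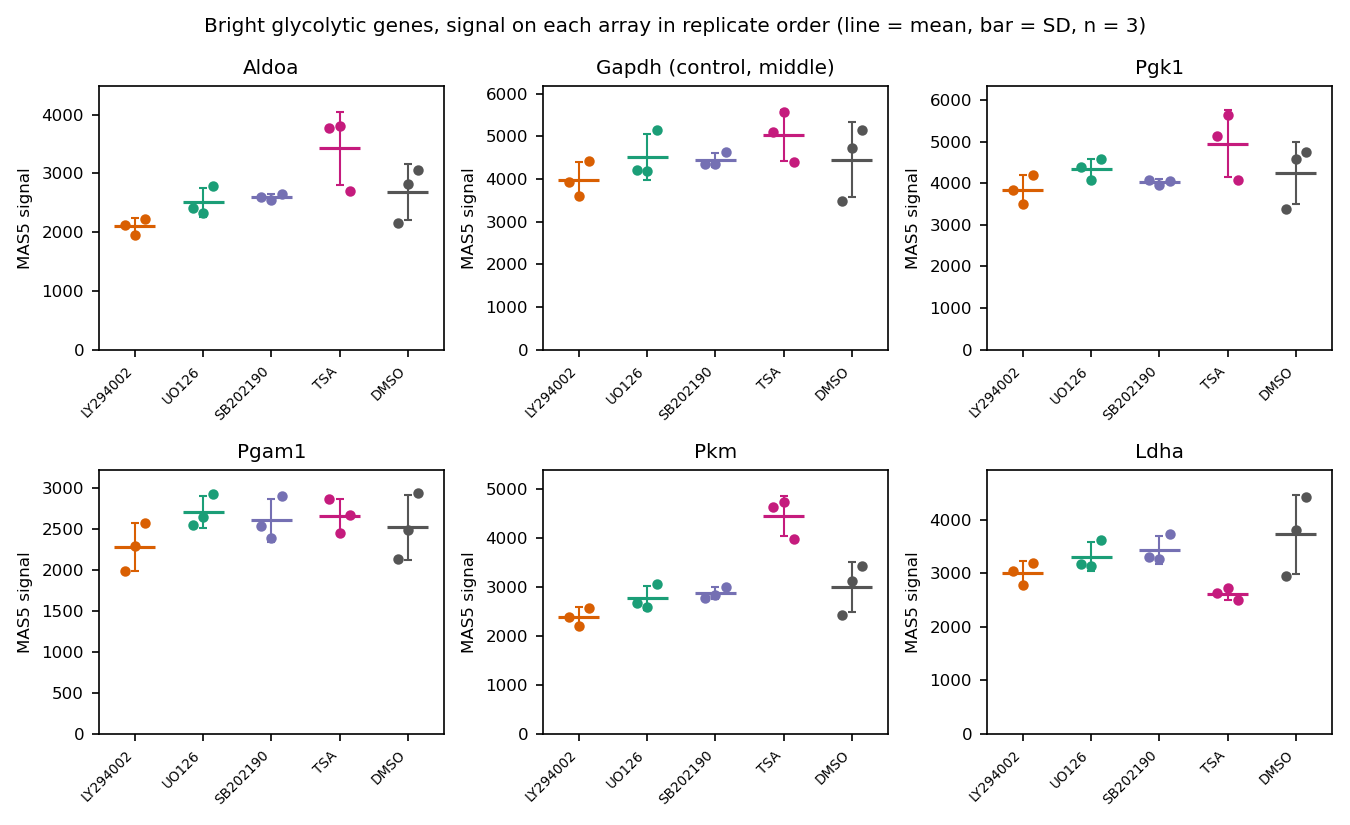
MAS5 signal (y axis, linear from 0) of 6 bright glycolytic genes on every array of the 5 groups (x axis), points in replicate order, lines for means and bars for SD (n = 3). The leftmost DMSO point is the lowest control in each panel, at 2959 for Ldha against 3810 and 4433 on the other DMSO arrays.

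UO126 and SB202190 each moved few members. UO126 raised 1 of 31, Bnip3, and lowered 1, Pfkp, where 1.88% of all genes tested were higher and 1.57% lower. SB202190 raised 2, Epas1 and Bnip3, where 2.01% of all genes were higher, and lowered 0 by limma (1 at an unadjusted p under 0.05), where 1.51% of all genes were lower. The median change was 0.05 with UO126 and 0.06 with SB202190, against 0.01 and 0.03 over all genes. With the replicate number as a block, used here because same-numbered UO126 and DMSO arrays deviated together, 2 members were called higher and 4 lower, the added ones being Ldhb, higher (adjusted p = 0.0168), and Slc2a3, Eno2 and Epas1, lower (adjusted p = 0.0272, 0.0318 and 0.041). The shares of all genes above are from the fit without the block, and those with the block are not given here.

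Bnip3 had signals of 642.4, 567.3 and 878.6 with UO126, 737.9, 708.7 and 616.3 with SB202190, and 461.4, 456.0 and 464.0 with DMSO. It was higher on every array with either compound than on any control, by 0.57 on the log2 scale with both (SE 0.13, adjusted p = 0.0262 with UO126 and 0.026 with SB202190). Both comparisons used the same 3 DMSO arrays, which lay close together for this gene. The UO126 call ended without UO126 array 3 or any DMSO array (adjusted p = 0.0665 to 0.0896, alternatives 0.00998 to 0.137), and the SB202190 call without SB202190 array 1 or 2 or any DMSO array (adjusted p = 0.0556 to 0.118, alternatives 0.0146 to 0.118). With LY294002 Bnip3 had 516.6, 522.5 and 560.2 and was not called (log2 change 0.21, adjusted p = 0.344).

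Pfkp had 194.9, 166.4 and 197.8 with UO126, against 276.2, 224.1 and 250.5 with DMSO (log2 change -0.42, SE 0.11, adjusted p = 0.0441), with no overlap, and its second probe set was called lower too (-0.84, adjusted p = 0.044). The first call ended without any UO126 array or DMSO array 1 or 3 (adjusted p = 0.0698 to 0.18, alternatives 0.00496 to 0.367). With SB202190 the Pfkp signals were 293.8, 262.0 and 318.2, which overlapped the controls. Ldhb was 597.0, 723.1 and 756.6 with UO126, 669.2, 726.1 and 710.7 with SB202190 and 477.6, 577.3 and 569.7 with DMSO. It was higher on all arrays with either compound, but its brightest probe set was not called (adjusted p = 0.123 with UO126 and 0.082 with SB202190), while its other 3 were called higher with both compounds (adjusted p = 0.0128 to 0.0314 with UO126 and 0.00571 to 0.0171 with SB202190).

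By its brightest probe set Epas1 was called in each of the 3 comparisons between kinase inhibitors. Its signals were 562.4, 484.5 and 556.5 with LY294002, 307.7, 317.7 and 366.7 with UO126, 642.5, 727.4 and 637.0 with SB202190, and 423.6, 394.5 and 429.4 with DMSO. The groups did not overlap, and in order of level UO126 was lowest, then DMSO, LY294002 and SB202190. SB202190 raised it 1.61-fold over DMSO (log2 change 0.68, SE 0.09, adjusted p = 0.000885), a call that held under every alternative (0.000521 to 0.019). The second Epas1 probe set, with means of 81.48 with SB202190 and 60.48 with DMSO, was not called in that comparison. It was also not called for LY294002 against UO126 or against SB202190. The UO126 change of -0.33 from DMSO passed only with the replicate block or without UO126 array 3 (adjusted p = 0.041 and 0.0481). In direct comparison Epas1 was 2.02-fold lower with UO126 than with SB202190 (log2 change -1.02, adjusted p = 6.39e-06) and 1.62-fold higher with LY294002 than with UO126 (log2 change 0.69, adjusted p = 0.000472). The difference of LY294002 from SB202190 (-0.32, adjusted p = 0.0485) was lost without any 1 of their 6 arrays (0.0679 to 0.193, alternatives 0.029 to 0.439).

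**Figure D4:**
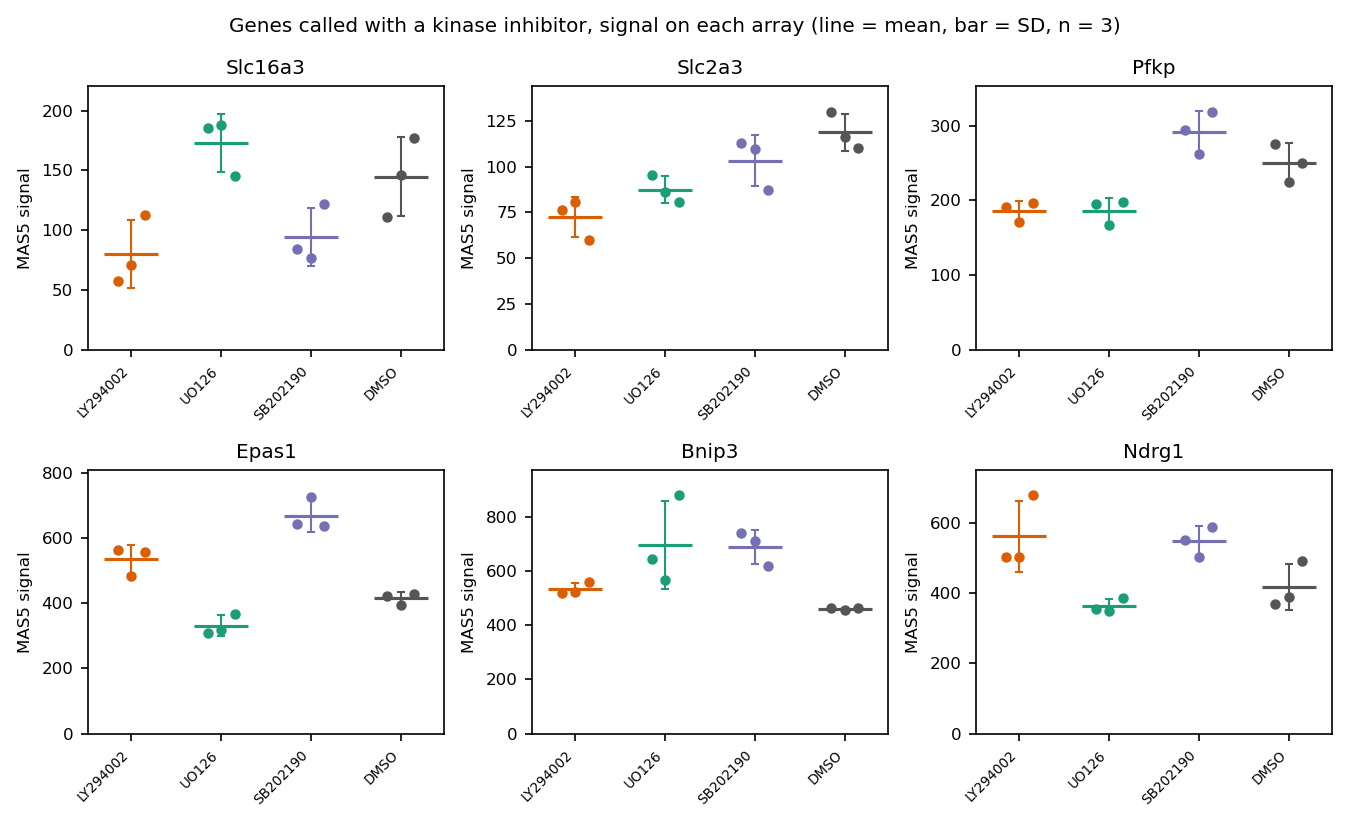
MAS5 signal (y axis, linear from 0) on every array with LY294002, UO126, SB202190 and DMSO (x axis) for 6 genes, as points, with group means as lines and SD as bars (n = 3). Epas1 lies between 307.7 and 366.7 with UO126 and between 637.0 and 727.4 with SB202190, and the LY294002 and DMSO arrays lie between these ranges.

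The kinase inhibitors were then set against each other, all at 10 µM for 24 hours. LY294002 against UO126 gave 2 members higher, Epas1 and Ndrg1, and 1 lower, Slc16a3, where 4.36% of all genes were higher and 3.82% lower. Slc16a3 had 57.66, 70.92 and 112.4 with LY294002, against 185.8, 188.1 and 145.3 with UO126 (2.23-fold lower, log2 change -1.16, SE 0.23, adjusted p = 0.00844). Ndrg1 had 504.3, 503.7 and 678.6 with LY294002, against 354.6, 349.5 and 387.5 with UO126 (log2 change 0.61, SE 0.12, adjusted p = 0.00871). In both genes the groups were apart, and these calls, with that of Epas1, held under all alternatives. Not all probe sets of Ndrg1 were called, and the second Epas1 probe set was not. Slc2a1, not called by its brightest probe set, had another that was called lower. With the replicate block 4 members were lower, adding Aldoc, Tpi1 and Pfkfb4 (adjusted p = 0.0274, 0.0242 and 0.039). The share of all genes called lower with the block is not given here.

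LY294002 against SB202190 gave 7 lower members, where 3.77% of all genes were lower, and 0 higher by limma (1 at an unadjusted p under 0.05), where 3.61% of all genes were higher. The 7 were Pfkp, Eno2, Slc2a3, Pfkfb4, Tpi1, Hk1 and Epas1, and with arrays centred on their median 0 of the members were called lower. Pfkp had 190.9, 170.8 and 196.2 with LY294002, against 293.8, 262.0 and 318.2 with SB202190 (1.56-fold lower, log2 change -0.65, SE 0.11, adjusted p = 0.002). Its second probe set was not called. Tpi1 and Hk1 were lower by log2 changes of -0.47 and -0.41 (adjusted p = 0.00979 and 0.00966), and the Hk1 call ended without SB202190 array 2 (adjusted p = 0.0518, alternatives 0.000473 to 0.119). Slc2a3, whose second probe set was not called, Eno2 and Pfkfb4 had changes of -0.52, -0.56 and -0.48 (adjusted p = 0.0373, 0.0243 and 0.0277). These calls ended without LY294002 array 1 or 3 or SB202190 array 1 or 2 for Slc2a3 (0.0617 to 0.155, alternatives 0.00704 to 0.196), without LY294002 array 1 or 2 or SB202190 array 1 or 3 for Eno2 (0.0847 to 0.1, alternatives 0.0142 to 0.153), and without LY294002 array 1 or 3 or any SB202190 array for Pfkfb4 (0.061 to 0.116, alternatives 0.0143 to 0.192).

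UO126 against SB202190 gave 4 lower members, Epas1, Eno2, Pfkp and Ndrg1, and 2 higher, Car9 and Slc16a3, where 4.78% of all genes were lower and 4.99% higher. Eno2 had 99.04, 92.21 and 78.58 with UO126, against 174.8, 150.6 and 189.6 with SB202190 (1.91-fold lower, log2 change -0.93, SE 0.14, adjusted p = 0.000486). The DMSO signals of Eno2, 129.0, 120.4 and 137.0, lay between these groups. Pfkp and Ndrg1 were lower by log2 changes of -0.64 and -0.59 (adjusted p = 0.00126 and 0.00772), and the 4 lower calls held under all alternatives. Not all probe sets of Ndrg1 were called. Hk1 and Tpi1, not called by their brightest probe sets, had other probe sets called lower. Slc16a3 had 185.8, 188.1 and 145.3 with UO126, against 84.01, 76.77 and 122.1 with SB202190 (1.86-fold higher, adjusted p = 0.0266), but lost its call without UO126 array 1 or 2 or SB202190 array 1 or 2 (0.0784 to 0.115, alternatives 0.00851 to 0.115). Car9 was higher by 1.03 (adjusted p = 0.0468) at signals of 20.77 to 59.23 in the 2 groups, a call lost without any UO126 array or SB202190 array 2 or 3 (0.0829 to 0.159, alternatives 0.0189 to 0.575). All SB202190 signals of Car9 were under 50, and with signals under 50 set to 50 its change was 0.14 (adjusted p = 0.575).

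Other genes of these pathways, listed apart from the members, gave the following counts. Of 6 tested regulators of HIF, TSA raised 2 and lowered 2, which is near the 30.6% and 28.4% of all genes that were higher and lower. Among them Hif1an, which blocks HIF activity by hydroxylating an asparagine, rose (log2 change 0.63, adjusted p = 8.64e-06), and Egln2, another hydroxylase of this family, fell (-0.65, adjusted p = 5.43e-05). Hif1an was also the 1 regulator called with LY294002 (0.45, adjusted p = 0.00471), and limma called 0 with UO126 or SB202190, where an unadjusted p under 0.05 was reached by 2, both higher, with each.

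Of 17 further HIF-responsive genes, TSA raised 4 and lowered 5, counts near the shares of 30.6% and 28.4% over all genes. Mxi1, an antagonist of Myc, rose 3.77-fold (adjusted p = 2.25e-07), and the haem oxygenase Hmox1 rose 2.92-fold (adjusted p = 3.67e-05), while the chemokine Cxcl12 was 2.51-fold lower (adjusted p = 2.47e-09). LY294002 raised 2 and lowered 2 (5.63% and 3.84% of all genes), and SB202190 raised 2 and lowered 1 (2.01% and 1.51% of all genes). Ddit4, a stress-induced inhibitor of mTORC1 signalling, was lower with LY294002 (log2 change -1.16, adjusted p = 0.00285) and with SB202190 (-0.99, adjusted p = 0.0131) and higher with TSA (1.13, adjusted p = 0.000141), each against the same DMSO arrays. Cxcl12 was higher with LY294002 (0.53, adjusted p = 0.00143) and SB202190 (0.73, adjusted p = 0.000135). UO126 raised 2 of these genes, Plod2 and P4ha1 (1.88% of all genes were higher).

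All 13 tested genes of pyruvate entry and the pentose phosphate pathway passed with TSA, 9 higher and 4 lower, where 30.6% of all genes tested were higher and 28.4% lower. Pdk4, which like Pdk1 restrains pyruvate dehydrogenase, rose 2.55-fold (adjusted p = 7.45e-05). In the non-oxidative pentose phosphate branch Taldo1 rose 2.10-fold (adjusted p = 4.83e-07), whereas Rpia was 1.91-fold lower (adjusted p = 2.76e-06). With LY294002 and with UO126 limma called 0 of the 13 (an unadjusted p under 0.05 was reached by 2 with LY294002, both lower, and by 3 with UO126, 2 of them lower), and with SB202190 it called only Pgd, higher by 0.40 (adjusted p = 0.014). Of 8 tested glycogen genes TSA raised 3 and lowered 3, again near the shares over all genes (30.6% and 28.4%), among them Ugp2, which makes the sugar donor UDP-glucose, 2.52-fold higher (adjusted p = 2.01e-08), and the branching enzyme Gbe1, 1.98-fold lower (adjusted p = 0.000793). Ppp1r3c, a targeting subunit that promotes glycogen synthesis, was 2.08-fold lower with SB202190 (adjusted p = 0.0329), and Pgm1 was higher by 0.35 (adjusted p = 0.0351). The glycogen phosphorylase Pygl was higher by 0.56 with UO126 (adjusted p = 0.0141), and Pgm2 had a log2 change of -0.37 with LY294002 (adjusted p = 0.0361).

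Probe sets of 1 gene mostly gave the same answer. Among the 17 members with several tested probe sets, all probe sets shared the call in 12 (LY294002), 16 (UO126), 14 (SB202190) and 12 (TSA) against DMSO, and in 0 of them were 2 probe sets called in opposite directions. The representatives of 4 members, Slc2a3, Aldoa, Pgk1 and Ndrg1, were of designs that can match more than 1 transcript (names ending in _s_at or _x_at), so related sequences may add to their signals.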

How the data were processed

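RNA from 15 cultures was hybridised to Affymetrix 430 2.0 mouse arrays, 1 per culture and 3 per group. The authors deposited linear intensity values, the MAS5 signal of each of 45101 probe sets per array, and the software version and scaling target are not given in the sources used here. Scaling to a common level makes each change relative to the rest of the array. Signals under 1 were set to 1 and log2 was taken. Probe sets with a mean signal of 50 or more in at least 1 group were tested (21765, with 64 control probe sets left out), in 1 fit of 5 groups with limma 3.58.1 (lmFit, contrasts and eBayes with trend, R 4.3.3) for 7 comparisons, with Benjamini-Hochberg adjustment and a threshold of 0.05. The number of arrays, 3 per group, limits the precision, and p-values measure the spread between these cultures, which the series describes as biological replicates.

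Gene symbols came from the platform annotation: 34958 probe sets had 1 symbol, 932 several and 9211 none, and only those with 1 were named. A gene was represented by its tested probe set with the highest mean log2 signal. Values on each array are given for up to 10 members per comparison with DMSO with the largest change past the threshold and for their isozyme partners, and other genes by counts and up to 3 examples a list. The members and lists were chosen with earlier results of these data known. Same-numbered arrays deviated together from their group means with LY294002 and DMSO (r = 0.425, 0.161 and 0.302), UO126 and DMSO (0.419, 0.235 and 0.223) and LY294002 and UO126 (0.339, 0.175 and 0.217), and there the fit with the replicate number as a block stands beside a result whose call or count it changed. The fit was tested on simulated data. Alternatives were quantile normalization, centring of arrays, a signal floor of 50, a pseudocount of 16, no filter or a mean of 100, no variance trend, the 2 groups alone, the replicate block, averaging the probe sets of a gene, and leaving out each array.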

Additional observations from a re-analysis of the deposited data

How the results depend on the processing

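No call of a member changed direction under any alternative. The shares of all genes called under the alternatives are not given here, so the counts below describe the members only. The TSA counts (19 higher, 5 lower) stayed within 1.5 times in every alternative, and without 1 array they were 16 to 19 and 4 to 5. For LY294002 against DMSO the 2 higher members became 1 with quantile normalization, array centring, no filter or no trend and 0 with the 2 groups alone or the mean of probe sets (0 to 1 without 1 array), and the 6 lower became 10 with quantile normalization, 2 with centring, 3 without the filter and 0 with the 2 groups alone (2 to 7 without 1 array). For UO126 against DMSO the 1 higher member became 0 with centring, no filter, no trend or the 2 groups alone and 2 with the replicate block or the mean of probe sets (0 to 1 without 1 array). The 1 lower member became 0 with quantile normalization, centring, no filter, no trend or the 2 groups alone, 2 with a mean filter of 100 or the mean of probe sets and 4 with the replicate block (0 to 1 without 1 array). For SB202190 against DMSO the 2 higher became 1 with centring, no filter or no trend and 5 with the replicate block, where the numbers did not all pair (lowest r = 0.0948), and were 1 to 2 without 1 array, and the 0 lower stayed at 0. LY294002 against UO126 gave 2 higher throughout the left-out arrays and 1 to 3 lower, and 1 lower became 4 with quantile normalization, a mean filter of 100 or the replicate block, 2 with no trend and 6 with the mean of probe sets. LY294002 against SB202190 gave 0 higher and 3 to 5 lower without 1 array, and the 7 lower became 0 with centring and 3 with the 2 groups alone. UO126 against SB202190 gave 4 lower and 0 to 1 higher without 1 array, and the 2 higher became 0 without the filter and 1 with quantile normalization, centring, a mean filter of 100, a floor of 50, no trend or the 2 groups alone. The block changed no other call in the paired comparisons than those given. Centring each array moved the median change of all probe sets to 0.124 with LY294002 against DMSO, and the cause of the other changes was not tested.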
